A study of Mus musculus with 6 samples.

Results

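The estrogen-related receptors (ERRα, ERRβ and ERRγ, encoded by Esrra, Esrrb and Esrrg) and the coactivators that work with them were examined in the soleus muscle of mice that had run on wheels. The genes were taken by symbol from the count table: the 3 receptors, the 3 members of the PGC-1 family (Ppargc1a, Ppargc1b and Pprc1), the muscle regulator Perm1 and the corepressor gene Nrip1. All 8 were among the 24411 genes listed, and all 8 passed the expression filter that left 12828 genes for testing. Polyadenylated RNA came from 3 WT and 3 LSD1-mKO mice, 1 library per mouse, and no sedentary mice were part of the series. LSD1-mKO mice carried floxed Lsd1 alleles and a tamoxifen-inducible CreERT2 under the human ACTA1 promoter, which is active in muscle fibers, so the other cell types of the muscle keep their LSD1. WT mice were floxed animals without CreERT2, and both genotypes were on C57BL/6 and received tamoxifen at 75 mg/kg for 5 days. The mice were 8 weeks old at the start and had a wheel for 38 days, of which the first 3 were for familiarization and the last 30 followed tamoxifen. Before tissue was taken, they were kept from the wheel and fasted for some hours.

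ERRs are orphan nuclear receptors: no natural hormone is known to be required for their activity, which depends largely on bound coactivators. PGC-1α and PGC-1β bind them and bring in enzymes and Mediator subunits that open chromatin and start transcription at genes of mitochondrial respiration, fatty acid oxidation and muscle contraction. In skeletal muscle PGC-1α is induced by endurance exercise, and ERRγ is abundant in slow, oxidative fibers such as those that dominate the soleus. The receptors bind as monomers or dimers to the element TCAAGGTCA, an extended nuclear receptor half-site.

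Promoters give the sequence context for these genes. RefSeq promoters of 300 bases on GRCm38.p6, from 250 before to 50 after a start site, were matched for 7 of the 8 genes and gave 12 promoters; Ppargc1b had no entry. Both strands were searched for TCAAGGTCA, for AAGGTCA, which lies within it, and for the half-site AGGTCA, which lies within both. The full element was in 0 of the 12 promoters, and among all 32851 mouse promoters of this length it was in 0.423%. AAGGTCA was in the Perm1 promoter alone of the 12, against 4.72% of all promoters, and AGGTCA was in those of Perm1 and Pprc1, against 16.3%. The Perm1 match lies on the opposite strand from base -202 to base -196 and the Pprc1 match on the gene's own strand from base -113 to base -108, counted from the start site. The 2 promoters with a match are shown with it in capitals, followed by the most upstream of the 4 Esrrg promoters, whose gene is the receptor with the widest separation between genotypes. None of the 4 Esrrg promoters held these letters, which says nothing of sites elsewhere.
Perm1, chr4:156215677-156215976, plus strand: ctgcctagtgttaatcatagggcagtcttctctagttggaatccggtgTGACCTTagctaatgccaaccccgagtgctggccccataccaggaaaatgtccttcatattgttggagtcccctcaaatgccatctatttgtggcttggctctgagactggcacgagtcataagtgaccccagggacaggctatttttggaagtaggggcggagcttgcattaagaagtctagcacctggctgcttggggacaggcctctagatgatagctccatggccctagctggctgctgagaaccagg
Pprc1, chr19:46056289-46056588, plus strand: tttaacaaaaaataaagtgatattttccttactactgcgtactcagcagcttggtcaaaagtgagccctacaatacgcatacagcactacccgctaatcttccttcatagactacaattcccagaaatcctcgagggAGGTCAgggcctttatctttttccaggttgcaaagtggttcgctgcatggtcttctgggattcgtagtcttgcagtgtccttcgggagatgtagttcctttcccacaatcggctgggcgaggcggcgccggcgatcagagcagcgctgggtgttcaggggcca
Esrrg, chr1:187608756-187609055, plus strand: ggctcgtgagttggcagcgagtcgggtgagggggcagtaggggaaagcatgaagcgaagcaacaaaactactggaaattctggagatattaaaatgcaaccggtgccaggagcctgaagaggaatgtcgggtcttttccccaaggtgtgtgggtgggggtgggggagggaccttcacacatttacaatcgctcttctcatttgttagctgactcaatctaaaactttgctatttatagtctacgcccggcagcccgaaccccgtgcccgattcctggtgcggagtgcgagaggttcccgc

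The libraries held 8940206 to 10989846 estimated counts in WT and 10984664 to 13798059 in LSD1-mKO, and the counts of the 8 genes ranged from 92 for Ppargc1b in WT replicate 1 to 5045 for Perm1 in LSD1-mKO replicate 2. Levels are given as TMM-normalized counts per 1000000 (CPM). Kdm1a, which encodes LSD1, was at 40.5, 38.2 and 33.6 CPM in WT and at 14.6, 16.6 and 16.6 CPM in LSD1-mKO, and its log2 fold change was -1.23 ± 0.11 (SE, n = 3 per genotype, edgeR quasi-likelihood test, adjusted p = 0.016). WT replicate 1 had root mean square log2 differences of 0.425 to 0.548 from the others, against 0.348 to 0.469 among the rest. By chi-square per gene its distances were 11.8 to 20.3, and the largest was 23.5, between WT replicate 3 and LSD1-mKO replicate 2. Chi-square was taken on the counts and grows with depth, and WT replicate 1 was the smallest library. That measure therefore cannot decide whether WT replicate 1 stood apart. The 10 soleus muscle markers summed to 90783 to 117815 CPM in WT and to 98877 to 106465 CPM in LSD1-mKO, with Myh7 and Myh2 high in all 6 mice. The 5 fibroblast markers summed to 943 CPM in WT replicate 1, 2593 and 3054 CPM in the other WT mice and 1096 to 2033 CPM in LSD1-mKO. The 5 immune markers summed to 11.5 to 50.7 CPM in WT and 12.7 to 32.0 in LSD1-mKO, the 5 endothelial markers to 451 to 651 and 461 to 574, the 6 adipocyte markers to 119 to 178 and 132 to 160, the 4 Schwann cell markers to 72.8 to 79.1 and 68.2 to 90.4, and the 5 red blood cell markers to 201 to 535 and 260 to 420. All 5 fibroblast markers and all 4 immune markers tested had fitted values below 0 in LSD1-mKO (median log2 fold changes -0.51 and -0.62). Of the 5 endothelial markers, Vwf was lower without overlap (-0.45 ± 0.14, edgeR adjusted p = 0.619), as were 6.1% of all genes. The others overlapped, with Pecam1 at -0.15, Cdh5 at -0.17, Kdr at 0.12 and Tek at 0.039. The part of these cell types in the values of the 8 genes was not tested. Ucp1, which defines brown adipocytes, was at 0 in all 6 libraries. In whole muscle, fewer cells of a type and less RNA per cell cannot be told apart.

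Across the 8 genes, LSD1-mKO muscle had more Esrrg, Esrrb and Perm1 transcript and less Nrip1 and Pprc1 transcript than WT, while Esrra, Ppargc1a and Ppargc1b overlapped between genotypes. None of the 8 passed an adjusted p of 0.05 with edgeR or limma voom, and with edgeR 0.0156% of all genes did. With DESeq2 1 of the 8, Esrrg, passed, as did 0.327% of all genes. With edgeR, 5 of the 8 had an unadjusted p under 0.05, against 6.4% of all genes tested. Of these, 3 were higher in LSD1-mKO, against 3.52% of all genes, and 2 were lower, against 2.88%. The same 5 genes were those whose genotypes did not overlap, against 12.7% of all genes. The number with an unadjusted p under 0.05 was 4 with DESeq2 and 6 with no filter on low counts. With 1 mouse left out it was 4 or 5. Without WT replicate 1, 14.4% of all genes had such a p. For the other alternatives this share was not taken, so their counts have no share beside them. Single genes were also compared with an exact two-sided permutation test, which cannot give a p below 0.1 with 3 mice per genotype.

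**Figure D1:**
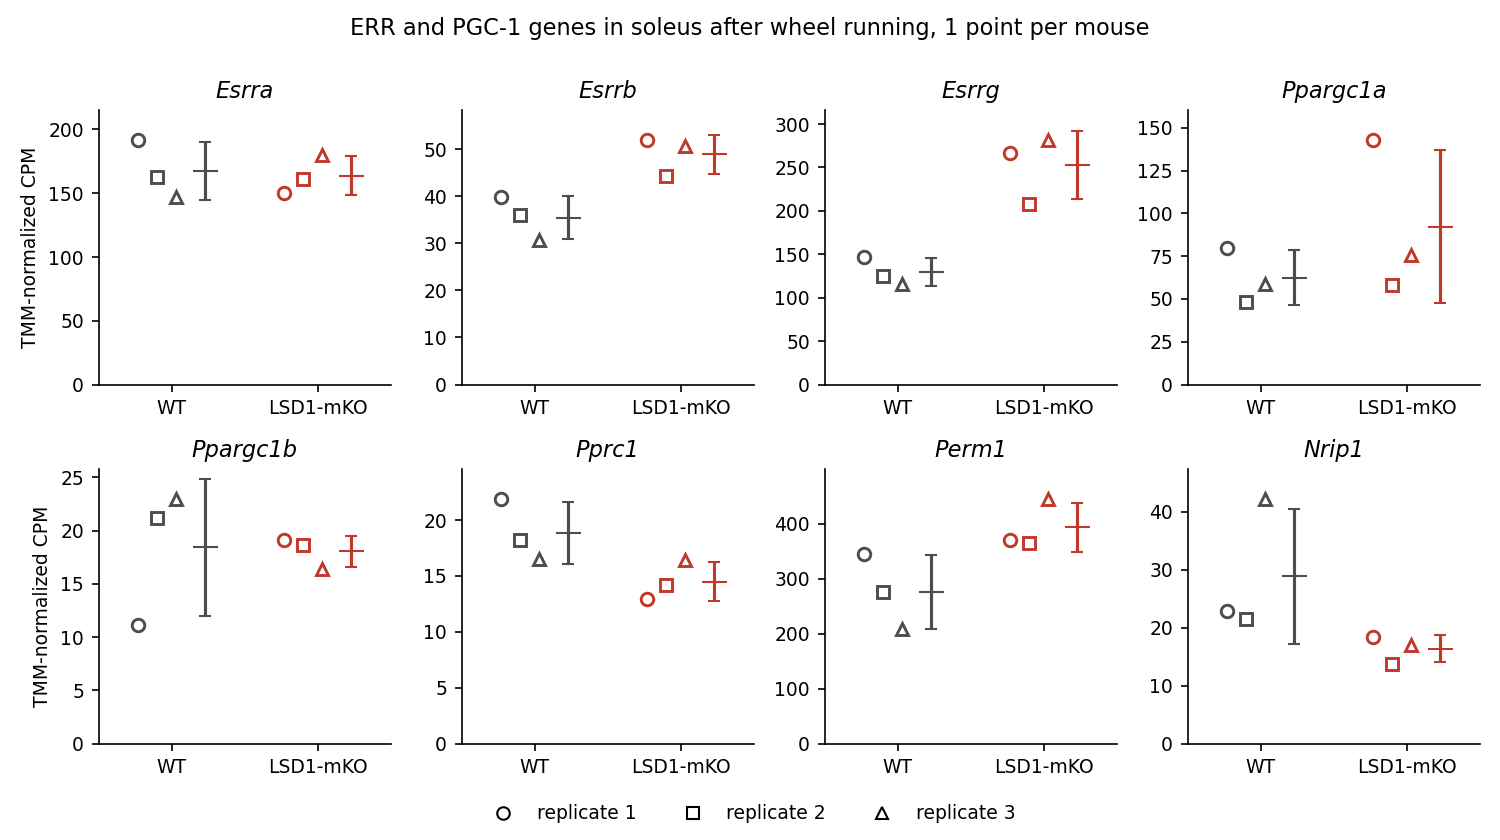
TMM-normalized CPM (linear axes from 0) of the 8 genes in the soleus of 3 WT and 3 LSD1-mKO mice, 1 symbol per mouse, with the mean and SD beside each genotype. The LSD1-mKO mice lie above all WT mice for Esrrb, Esrrg and Perm1 and below all WT mice for Pprc1 and Nrip1, narrowly for Pprc1.

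Esrrg, on chromosome 1 of GRCm38 from 187608791 to 188214885, encodes ERRγ. Its level was 147, 125 and 116 CPM in WT replicates 1 to 3 and 267, 208 and 282 CPM in LSD1-mKO replicates 1 to 3. The lowest LSD1-mKO mouse was above the highest WT mouse, and the mean was 1.95 times that of WT. The fitted log2 fold change was 0.96 ± 0.14 (SE, n = 3 per genotype), with a 95% interval of 0.65 to 1.28. Its unadjusted p in the edgeR fit, 0.000101, was the eighth smallest among the 12828 genes, and the adjusted p was 0.162. With DESeq2 its adjusted p was 1.79e-06. The log2 fold change stayed between 0.88 and 1.09 with any 1 mouse left out, and was 1.07 ± 0.138 without WT replicate 1.

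Esrrb, on chromosome 12 from 86361117 to 86521628, encodes ERRβ, known from trophoblast and pluripotent stem cells and also made in oxidative muscle. It was at 39.8, 36.0 and 30.6 CPM in WT and at 52.0, 44.2 and 50.6 CPM in LSD1-mKO. Every LSD1-mKO mouse was again above every WT mouse, by a smaller margin than for Esrrg. The log2 fold change was 0.47 ± 0.12 (SE, n = 3 per genotype, 95% interval 0.19 to 0.74). In the edgeR fit the unadjusted p was 0.00409 and the adjusted p 0.534. The log2 fold change ranged from 0.37 to 0.56 when 1 mouse was left out.

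Esrra, on chromosome 19 from 6910977 to 6921813, encodes ERRα, the partner through which PGC-1α drives respiratory chain genes. It was at 192, 163 and 147 CPM in WT and at 150, 161 and 180 CPM in LSD1-mKO. The genotypes overlapped throughout their range, and the log2 fold change was -0.031 ± 0.12 (SE, n = 3 per genotype, 95% interval -0.31 to 0.25, edgeR adjusted p = 0.969). The upper end of this interval lies below the lower end for Esrrg, at 0.65. Exons of Esrra overlap those of Trmt112 on the opposite strand and Mir6990 on its own strand. Whether reads of Trmt112 were kept apart is unknown, because the strand setting of the counting is not given in the sources used. No strand setting would separate reads of Mir6990.

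The make-up of the ERR family differed between genotypes. Shares were computed from transcripts per 1000000 (TPM), which divide the counts by the length of the longest coding transcript. Esrrg made up 22.4%, 22.3% and 23.0% of the summed ERR TPM in WT and 38.6%, 32.0% and 36.3% in LSD1-mKO. The WT mice lay within 1 point of each other, and the LSD1-mKO mice were all higher, by 13.1 points on average (35.7% ± 3.35 against 22.5% ± 0.356, SD, n = 3, exact two-sided permutation p = 0.1). Esrra held 70.1%, 69.7% and 69.5% in WT and 52.0%, 59.5% and 55.6% in LSD1-mKO, the highest share in all 6 mice by this length. Esrrb contributed 7.55% to 8.03% in WT and 8.13% to 9.39% in LSD1-mKO. This narrow separation of Esrrb was not seen with the union of all exons as the length (9.04% ± 0.325 in WT and 9.42% ± 0.603 in LSD1-mKO, SD, n = 3), nor in shares of counts, where the difference was -0.131 points. The order of Esrrg and Esrra also depended on length. With the union of exons, Esrrg was above Esrra in LSD1-mKO replicates 1 and 3 (50.2% against 39.8%, and 47.9% against 43.3%). In shares of counts, Esrrg was above Esrra in all 3 LSD1-mKO mice (57.0%, 50.3% and 55.0% against 32.0%, 39.0% and 35.1%). The summed ERR TPM was 250, 248 and 212 in WT and 282, 267 and 321 in LSD1-mKO, again without overlap (exact permutation p = 0.1).

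**Figure D2:**
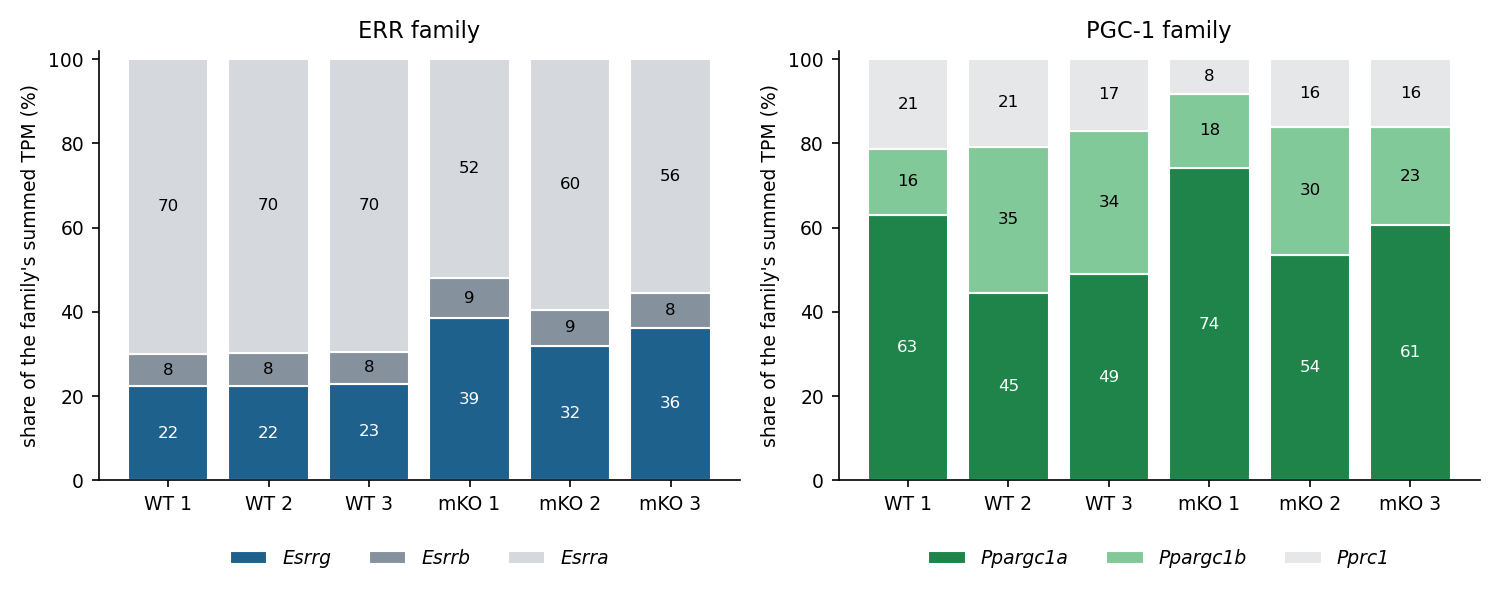
Share (%) of each gene in the summed TPM of the ERR family (left) and the PGC-1 family (right), 1 stacked bar per mouse, with the share printed in each segment. The Esrrg segment is 22% to 23% in the 3 WT mice and 32% to 39% in the 3 LSD1-mKO mice, while the Ppargc1a segment overlaps between genotypes.

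The PGC-1 family comprises the exercise-induced Ppargc1a, the related Ppargc1b, and Pprc1, which encodes the growth-responsive coactivator PRC. Ppargc1a, on chromosome 5 from 51454250 to 51567726, was at 79.7, 48.2 and 59.0 CPM in WT and at 143, 58.3 and 75.5 CPM in LSD1-mKO. LSD1-mKO replicate 1 alone exceeded all the WT mice, and the other 2 LSD1-mKO mice lay within the WT range. The log2 fold change was 0.57 ± 0.32 (SE, n = 3 per genotype, 95% interval -0.16 to 1.30, edgeR adjusted p = 0.777). It was 0.11 ± 0.212 without LSD1-mKO replicate 1 and 0.82 without LSD1-mKO replicate 2, so single mice set its size.

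Ppargc1b, on chromosome 18 from 61298136 to 61400431, encodes PGC-1β, which also binds ERRs. It was at 11.1, 21.2 and 23.0 CPM in WT and at 19.1, 18.7 and 16.4 CPM in LSD1-mKO. WT replicate 1, which had the lowest fibroblast and immune marker sums, was the lowest of the 6, and the other WT mice were above all LSD1-mKO mice; the part of the cell mixture in this was not tested. Its log2 fold change was -0.040 ± 0.24 (SE, n = 3 per genotype, edgeR adjusted p = 0.979). Without WT replicate 1 it was -0.29 ± 0.113, and edgeR's unadjusted p was then 0.0363 and its adjusted p 0.315.

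Pprc1, on chromosome 19 from 46044886 to 46072915, was at 21.9, 18.2 and 16.5 CPM in WT and at 12.9, 14.2 and 16.4 CPM in LSD1-mKO. The genotypes were apart by the small gap between WT replicate 3 and LSD1-mKO replicate 3. Its log2 fold change was -0.38 ± 0.15 (SE, n = 3 per genotype, 95% interval -0.71 to -0.05). The edgeR fit gave an unadjusted p of 0.0304 and an adjusted p of 0.729. The unadjusted p was above 0.05 in 4 of the 6 fits that left out 1 mouse, those without WT replicate 1 (where the value was -0.26 ± 0.136), WT replicate 2, LSD1-mKO replicate 1 or LSD1-mKO replicate 2, from 0.0531 to 0.0976, and it was 0.0541 with DESeq2. Exons of Pprc1 overlap those of Ldb1 on the opposite strand. Without WT replicate 1, 5 of the 8 genes again had an unadjusted p under 0.05, with Ppargc1b in place of Pprc1, while this share was then 14.4% of all genes.

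Within the PGC-1 family the shares varied more between mice of a genotype than in the ERR family. Ppargc1a made up 63.1%, 44.6% and 49.1% of the summed PGC-1 TPM in WT and 74.2%, 53.6% and 60.6% in LSD1-mKO, a difference of 10.5 points with overlapping genotypes (exact two-sided permutation p = 0.3). Single mice set its size: it was 4.81 points without LSD1-mKO replicate 1, 6.67 without WT replicate 2 and 15.9 without WT replicate 1. It was the most abundant of the 3 in every mouse. Ppargc1b held 15.5%, 34.6% and 33.9% in WT and 17.5%, 30.3% and 23.2% in LSD1-mKO, and was lowest in replicate 1 of either genotype. Pprc1 held 21.4%, 20.8% and 17.0% in WT and 8.28%, 16.1% and 16.2% in LSD1-mKO, where the genotypes did not overlap. The summed PGC-1 TPM was 39.9, 39.7 and 41.8 in WT and 65.3, 37.2 and 42.7 in LSD1-mKO. Divided by this sum, the summed ERR TPM was 6.26, 6.24 and 5.07 in WT and 4.32, 7.17 and 7.50 in LSD1-mKO, so LSD1-mKO replicate 1 had the lowest receptor to coactivator ratio of the 6 and the other LSD1-mKO mice the highest (exact permutation p = 0.6).

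Perm1, on chromosome 4 from 156215868 to 156221307, encodes a striated muscle protein that is induced by PGC-1 and ERR and in turn raises the output of their target genes. It was at 344, 275 and 209 CPM in WT and at 371, 365 and 445 CPM in LSD1-mKO. The genotypes did not overlap, although WT replicate 1 came close to the lowest LSD1-mKO mouse. On the log2 scale the fitted difference was 0.51 ± 0.18 (SE, n = 3 per genotype, 95% interval 0.11 to 0.92). The unadjusted p from edgeR was 0.0181 and the adjusted p was 0.680. The fitted difference was 0.71 without WT replicate 1 and 0.35 without WT replicate 3. Without LSD1-mKO replicate 3 it was 0.42, with an interval that included 0 and an unadjusted p of 0.0723. Per length of the longest coding transcript, Perm1 and Esrra had the highest levels of the 8 transcripts; the place of Esrra depends on that length, as above. In WT, Perm1 at 180, 168 and 120 TPM overlapped Esrra at 175, 173 and 147 TPM, whereas in LSD1-mKO Perm1 at 208, 207 and 253 TPM was above Esrra at 147, 159 and 178 TPM. Esrrg followed at 53.3 ± 4.03 TPM in WT and 104 ± 16.2 TPM in LSD1-mKO (SD, n = 3). Next came Ppargc1a at 21.2 ± 3.77 and 31.4 ± 15 TPM and Esrrb at 18.3 ± 2.03 and 25.1 ± 2.08 TPM, which overlapped in both genotypes. Ppargc1b, Nrip1 and Pprc1 had the lowest levels, at 11.4, 8.17 and 7.96 TPM in WT and 10.9, 4.59 and 6.11 TPM in LSD1-mKO.

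Nrip1, on chromosome 16 from 76287400 to 76373827, encodes RIP140, a corepressor that binds ERRs and other nuclear receptors and limits oxidative genes in muscle and fat. It was at 22.8, 21.5 and 42.2 CPM in WT and at 18.3, 13.8 and 17.0 CPM in LSD1-mKO. Every LSD1-mKO mouse was below every WT mouse, and WT replicate 3 was far above the other 2. A log2 fold change of -0.82 ± 0.26 was fitted (SE, n = 3 per genotype, 95% interval -1.41 to -0.24), the lowest value among the 8. Its unadjusted p in the edgeR fit was 0.0117 and its adjusted p 0.631. The fitted value was -0.43 without WT replicate 3, with an unadjusted p of 0.0215. WT replicate 3 also had the highest sums of adipocyte markers (178 CPM) and fibroblast markers (3054 CPM) of the 6 libraries. Of the adipocyte markers, Cfd (141 CPM) and Plin1 (11.9 CPM) were highest there. Adipoq, at 16.5 CPM in WT replicate 3, was highest in LSD1-mKO replicate 2 (21 CPM), and Lep and Cidea were highest in other LSD1-mKO mice. The part of these cell types in its Nrip1 level was not tested.

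**Figure D3:**
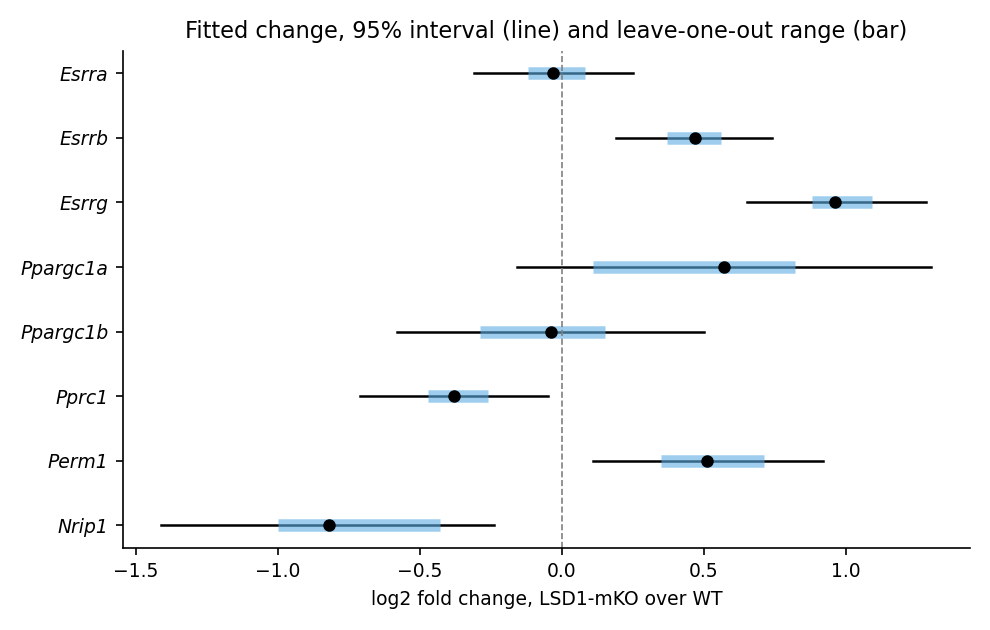
Log2 fold change of the 8 genes, LSD1-mKO over WT, fitted with edgeR (points), with the 95% interval (black lines) and the range over the fits that leave out 1 mouse each (blue bars). Esrrg has the highest fitted value, 0.96, and Nrip1 the lowest, -0.82; Ppargc1a and Nrip1 have the widest ranges when a mouse is left out.

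How each gene followed Esrrg was compared as the log2 ratio of its CPM to that of Esrrg in each mouse. The ratio of Perm1 to Esrrg was 1.22, 1.14 and 0.84 in WT and 0.47, 0.81 and 0.66 in LSD1-mKO. Perm1 shifted by -0.42, and the highest of the LSD1-mKO ratios was below the lowest in WT. The ratio of Esrrb was -1.89, -1.80 and -1.93 in WT and -2.36, -2.23 and -2.48 in LSD1-mKO, a shift of -0.49 with little spread. The ratio of Ppargc1a was -0.88, -1.38 and -0.98 in WT and -0.90, -1.83 and -1.90 in LSD1-mKO, so the mouse with the most Ppargc1a had a ratio within the WT range and the other 2 LSD1-mKO mice lay below it (shift -0.47, exact permutation p = 0.3). This shift was -0.79 without LSD1-mKO replicate 1, and -0.29 without LSD1-mKO replicate 3.

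The other ratios shifted further. Esrra to Esrrg was 0.39, 0.38 and 0.34 in WT and -0.83, -0.37 and -0.65 in LSD1-mKO, so the gene with more counts was Esrra in every WT mouse and Esrrg in every LSD1-mKO mouse. Pprc1 to Esrrg was -2.74, -2.78 and -2.81 in WT, with an SD of 0.03, and -4.37, -3.87 and -4.11 in LSD1-mKO, a shift of -1.34. Ppargc1b to Esrrg was -3.73, -2.56 and -2.34 in WT and -3.81, -3.48 and -4.11 in LSD1-mKO, with WT replicate 1 inside the LSD1-mKO range (shift -0.92, exact permutation p = 0.2). Nrip1 to Esrrg shifted by -1.71, from -2.69, -2.54 and -1.46 in WT to -3.87, -3.91 and -4.05 in LSD1-mKO. Without WT replicate 3 its shift was -1.33 and that of Pprc1 was -1.35. Of the 7 ratios, 5 did not overlap between genotypes, each with an exact two-sided permutation p of 0.1, the smallest this design allows, and 0.14 after adjustment over the 7. Since Esrrg itself was higher in every LSD1-mKO mouse, a gene at a constant level gives a lower ratio, as Esrra did. For all genes, the share of such ratios without overlap was not computed, so the count of 5 is a description.

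**Figure D4:**
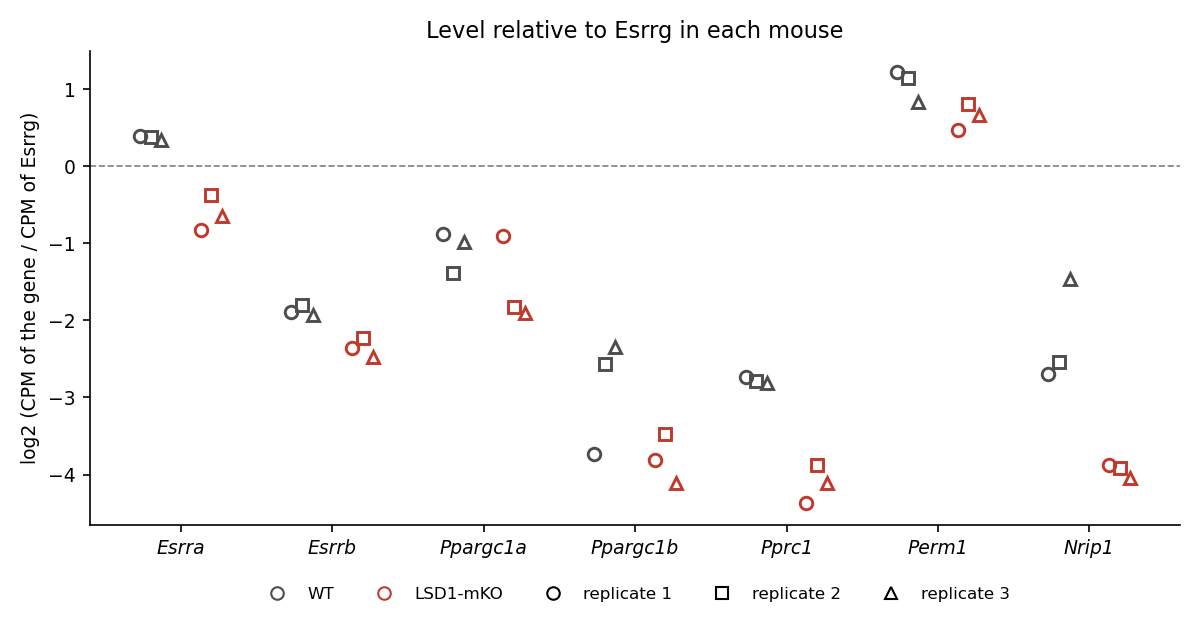
Log2 ratio of the CPM of each of the other 7 genes to the CPM of Esrrg, 1 symbol per mouse (WT grey, LSD1-mKO red); 0 marks equal CPM. All 7 mean ratios are lower in LSD1-mKO, with shifts from -0.42 for Perm1 to -1.71 for Nrip1, and the genotypes overlap for Ppargc1a and Ppargc1b.

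Because Esrrg separates the genotypes, no correlation was pooled over the 6 mice, and the order of the mice was compared within each genotype, over 3 pairs of mice in either. Perm1 ordered the mice as Esrrg did in all 6 pairs, which held for 2.12% of the other genes tested. Esrra, Esrrb and Pprc1 matched in 5 of the 6 pairs, which held for 11.8% of genes, and Ppargc1a in 4, Nrip1 in 3 and Ppargc1b in 1. With scaling by library size alone, Perm1 still matched in 6 pairs, while Esrrb matched in 4 and Nrip1 in 2. These counts describe 6 libraries that share depth and scaling, and no test was made of them. Ppargc1b was ordered against both Esrra and Pprc1 in all 6 pairs. Since Esrra and Pprc1 were ordered alike in all 6, these are not separate observations. The share of all genes with such an order was computed for Esrrg alone, so this is a description.

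The genes whose pattern over the 6 mice was most like that of Esrrg were found by the root mean square difference of log2 CPM after centring each gene, over genes with a mean of at least 5 CPM. Tmem150c, a membrane protein gene, was nearest at 0.115, with 6.63, 6.12 and 5.86 CPM in WT and 10.7, 8.90 and 12.7 CPM in LSD1-mKO. Paqr9 (0.153), the Wnt receptor gene Fzd9 (0.157), the sialyltransferase gene St8sia5 (0.160) and the ubiquitin ligase gene Rnf157 (0.162) came next, where the median over all 10210 genes compared was 0.530. Among the 8, Esrrb stood 35th at 0.258 and Perm1 37th at 0.259, while Ppargc1a was at 0.425 and Esrra at 0.510. This difference runs over all 6 mice and so includes the step between genotypes. The places of the 8 are therefore no measure of shared order within a genotype. Nearest to Ppargc1a were Hectd2 (0.141), the glutamate transporter gene Slc1a1 (0.142), Ccdc136 (0.219), Asb5 (0.225) and Fam65b (0.247), all highest in LSD1-mKO replicate 1. Slc1a1, for example, was at 9.16, 6.12 and 8.88 CPM in WT and at 21.6, 8.47 and 10.8 CPM in LSD1-mKO. Each of these 10 genes is named for its likeness to Esrrg or Ppargc1a, and their levels are therefore a description.

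Known targets of ERRs and PGC-1 were compared next. The list held 26 genes of fatty acid oxidation, the tricarboxylic acid cycle, respiration and related functions, all of which were tested. None passed an adjusted p of 0.05 with edgeR, DESeq2 or limma voom, and 24 had a fitted value above 0 and 2 below. The median log2 fold change was 0.11, against -0.02 over all genes. Only Cox19, which encodes a factor for assembly of cytochrome c oxidase, had an unadjusted p under 0.05: it was at 45.3, 40.1 and 44.5 CPM in WT and at 56.0, 50.5 and 52.9 CPM in LSD1-mKO, without overlap (log2 fold change 0.30 ± 0.09, edgeR adjusted p = 0.619). One such gene of 26 compares with 6.63% of all genes that did not overlap in this direction. Ldhb, the heart-type lactate dehydrogenase subunit gene, was at 1246, 1062 and 909 CPM in WT and at 1169, 1424 and 1422 CPM in LSD1-mKO (0.32 ± 0.14, adjusted p = 0.766). The 2 genes with values below 0 were Ucp3, a mitochondrial uncoupling protein gene (-0.10 ± 0.22), and Acadvl, the very long chain acyl-CoA dehydrogenase gene (-0.0050 ± 0.13). The 26 targets summed to 35548 CPM in WT replicate 1, the highest of all mice, and to 27222 and 27806 CPM in the other WT mice. In LSD1-mKO they summed to 30514 to 35213 CPM. Without WT replicate 1, the median was 0.19. In that fit 8 of the 26 had an edgeR unadjusted p under 0.05, all higher in LSD1-mKO, where 6.43% of all genes did so. The 5 fibroblast markers were then all lower with an edgeR unadjusted p under 0.05, against 7.98% of genes in that direction. The part of the cell mixture in the targets' values was not tested.

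Of 26 targets, 21 matched a RefSeq promoter, and none of the 21 held TCAAGGTCA within the 300 bases. AAGGTCA was in that of Acadm alone (4.76% of 21 genes, against 5.38% of all genes in the table), and AGGTCA was in 6 (28.6%, against 18.1%).

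Other coregulators of ERRs and PGC-1 showed 0 genes past an adjusted p of 0.05 and 0 past an unadjusted p of 0.05 among the 15 tested of 17, with edgeR and with DESeq2. The median log2 fold change was -0.049. Nr0b1 was at 0 in all 6 libraries, and Nr0b2, which encodes the repressor SHP, was under 1 CPM in each. Sirt1, the deacetylase that acts on PGC-1α, was at 21.5 ± 1.83 CPM in WT and 18.4 ± 1.91 CPM in LSD1-mKO (SD, n = 3), with overlap and a log2 fold change of -0.22 ± 0.12. Kat2a, the acetyltransferase that opposes it, was at 18.2, 18.1 and 19.3 CPM in WT and at 15.2, 18.5 and 14.5 CPM in LSD1-mKO (-0.20 ± 0.12). The corepressor gene Ncor1 (0.14 ± 0.09) and the Mediator subunit gene Med1 (0.11 ± 0.10) had the smallest p-values above 0. Crebbp was the 1 gene of the list whose genotypes did not overlap downward, against 6.1% of all genes.

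Of the 14 genes for mitochondrial transcription and for factors that partner with PGC-1, none had an unadjusted p under 0.05 with edgeR or DESeq2, and the median log2 fold change was 0.069. In 4 of the 14, Nrf1, Gabpa, Yy1 and Mef2d, the lowest LSD1-mKO mouse was above the highest WT mouse, as in 6.63% of all genes, with fitted values from 0.081 to 0.21. Nrf1, which activates genes of the respiratory chain, was at 13.3, 13.6 and 14.1 CPM in WT and at 14.4, 17.0 and 16.1 CPM in LSD1-mKO (0.21 ± 0.12, edgeR adjusted p = 0.777), and Yy1 had 0.15 ± 0.08. Below 0, Foxo1, a transcription factor of the fasting response, had -0.46 ± 0.39 with 49.0 to 160 CPM in WT and 56.0 to 104 CPM in LSD1-mKO, and the mitochondrial RNA polymerase gene Polrmt had -0.11 ± 0.10. Tfam, which packages mitochondrial DNA, was at 64.5 to 71.9 CPM in WT and 65.8 to 68.8 CPM in LSD1-mKO.

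**Figure D5:**
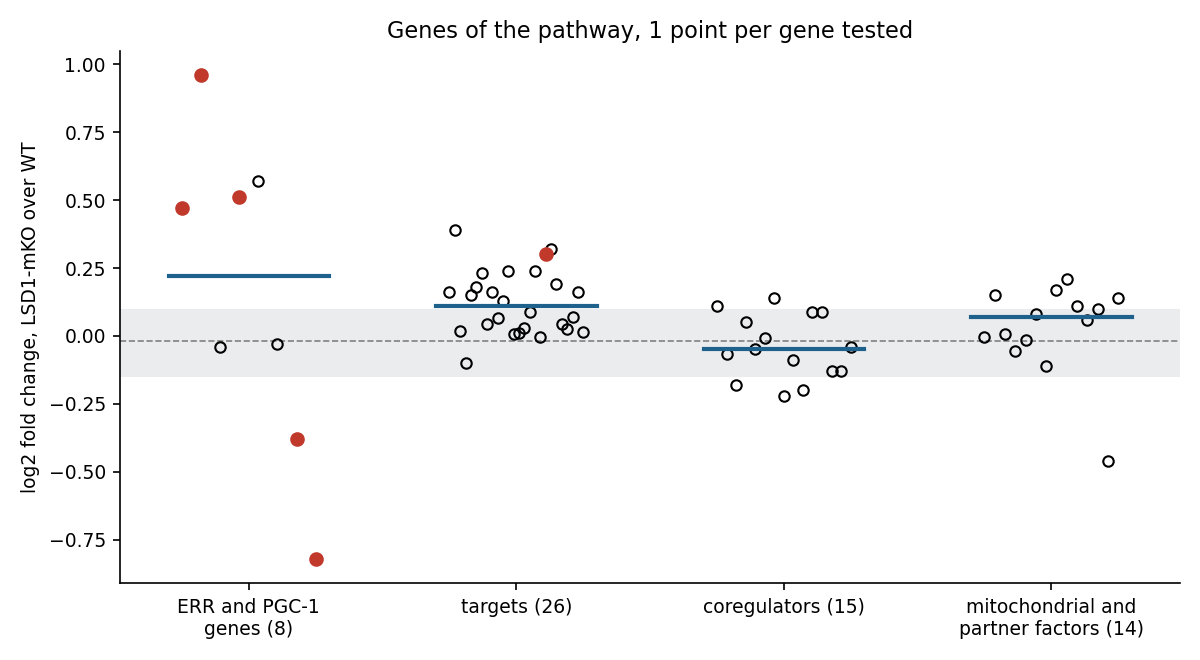
Log2 fold change, LSD1-mKO over WT, of each gene tested among the 8 ERR and PGC-1 genes, 26 targets, 15 coregulators and 14 mitochondrial and partner factors (red: edgeR unadjusted p under 0.05; blue line: median; grey band: quartiles of all genes, -0.15 to 0.09). The 8 genes spread from -0.82 to 0.96, while the targets lie between -0.10 and 0.39.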

How the data were processed

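Polyadenylated RNA of soleus from 3 WT and 3 LSD1-mKO mice was sequenced as single-end reads of 75 bases. Per the labels, alignment was to mm10 with STAR; the authors deposited, without normalization, estimated counts for each gene. The counting tool, its strand setting and the annotation are not given in the sources used here. A DESeq2 table of the authors' own comparison (log2 ratio, p-value and adjusted p-value) was not used. The estimated counts were rounded to whole numbers for the quasi-likelihood test of edgeR 4.0.16 in R 4.3.3 (TMM, filterByExpr by genotype), with Benjamini-Hochberg adjustment over 12828 genes. DESeq2 1.42.0, limma 3.58.1 voom, other scalings and filters and each mouse left out were alternatives. The fits were tested on simulated data. TPM used the longest coding transcript in GENCODE vM21, where 23350 symbols had a direct match, 677 an older name and 384 no length. Likeness used log2(CPM + 0.1).

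The genes and the lists of targets, coregulators, factors and markers were chosen with earlier results of these data known. Named genes are the 8, Kdm1a, from each pathway list the 2 with the smallest p in each direction, and the 5 nearest each of Esrrg and Ppargc1a; Crebbp, Gabpa, Mef2d and Tfam, and the 2 low coregulators Nr0b1 and Nr0b2, were added after their values were seen. No label states that the mice were from separate litters, so p-values measure the spread between these mice. Replicate numbers did not pair the mice. Totals of 8940206 to 13798059 counts set the precision; PCR-amplified reads are not independent molecules.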

Additional observations from a re-analysis of the deposited data

How the results depend on the processing

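Of the 8 fold changes, those of Esrrb, Esrrg, Ppargc1a, Pprc1, Perm1 and Nrip1 kept their direction under every alternative tried, as did the 2 shares and the 7 ratios; the alternatives for the ratio of Esrrb to Esrrg were added after the data were seen. Those of Esrra and Ppargc1b, near 0, changed sign: leaving out 1 mouse gave -0.12 to 0.083 for Esrra and -0.29 to 0.15 for Ppargc1b. The number of the 8 past an adjusted p of 0.05 was 1 (Esrrg) with DESeq2, where 42 genes passed, and 1 with no filter on low counts, where 11 genes passed and the adjusted p of Esrrg was 0.0111; it was 0 otherwise. Its adjusted p ranged from 1.79e-06 to 0.705 over the alternatives. The number of all genes past the threshold, 2 as reported, was 1 to 3 with 1 mouse left out. The number of targets with an unadjusted p under 0.05, 1 as reported, was 2 with DESeq2, upper quartile scaling or no filter, 3 with library size alone, and 1 to 8 with 1 mouse left out, the highest when WT replicate 1 was the mouse left out. What caused these shifts was not tested. With edgeR, 6.4% of all genes had an unadjusted p under 0.05 as reported and 14.4% without WT replicate 1. For the other settings, including the replicate block below, this share was not taken, so their counts have no share beside them. With the replicate number as a block, Ppargc1b was at 0.016, 1 gene passed the threshold, Ppargc1a (p = 0.0109) replaced Pprc1 (p = 0.0708) among the 5 of the 8 with an unadjusted p under 0.05, and 2 targets had an unadjusted p under 0.05; deviations of same-numbered mice correlated at -0.352, -0.107 and -0.15, which gives no ground for treating equal numbers as pairs. With 3 mice per genotype, exact tests cannot pass 0.05. In the edgeR fit as reported, neither the change of Esrrb (0.47) nor that of Esrrg (0.96) passed the adjustment.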
